A study of Mus musculus with 6 samples.

Results

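Voltage-gated sodium and calcium channels open when a neuron's membrane depolarizes. Sodium channels carry the upstroke of the action potential, and calcium channels turn it into calcium entry for transmitter release, firing patterns and, in muscle, contraction. Each channel is built around a large pore-forming alpha subunit, and smaller auxiliary subunits set where the pore is placed and how it gates. The genes described here are those with an Scn symbol for a sodium channel alpha or beta subunit, or with a symbol starting with Cacna, Cacnb or Cacng for a calcium channel subunit. Earlier results of these data were known when this family was chosen. Membership then followed the gene symbol alone, on every probe set whose annotation named 1 gene. This gave 35 genes, 11 of sodium and 24 of calcium channels, on 85 probe sets, out of 18194 genes so annotated in the series. The Cacng family also holds the transmembrane regulators of AMPA-type glutamate receptors, so its members are not all calcium channel subunits in neurons.

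The RNA was total RNA from mouse lumbar spinal cord, segments L3 to L5, at 27 days of age, with 3 cords in each pool. There were 3 pools: pool 1 (RNA 450) and pool 2 (RNA 500), labelled Egr3-deficient, and a wild-type pool (RNA 499). A pool was hybridised once to array type A and once to array type B. Egr3 is an immediate early transcription factor needed for muscle spindles, and the series title names fusimotor neurons. The labels of pool 2 and wild type mention acclimatization and those of pool 1 do not. Neither the labels nor the series title state the allele, strain or sex. Each comparison set the 2 pools labelled Egr3-deficient against the lone wild-type pool, whose own spread is not measured, and both ratios share that pool.

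A probe set is a group of array probes read together as 1 value, and its deposited value is a linear intensity. Differences below are pool minus wild type in log2(intensity + 16) after quantile normalization, a scale that understates changes of dim probe sets, so they need not equal the ratio of the deposited intensities. Probe sets with a mean at or above the 40th percentile of the array type were kept and tested with limma over all kept probe sets, and a call means a Benjamini-Hochberg adjusted p below 0.05. Levels of different probe sets are not compared. Of the 85 channel probe sets, 49 were kept, 19 on A and 30 on B, and these covered 29 of the 35 genes. The 36 that were not kept read at most 85.8 in any pool. Cacna1f, Cacna1s, Cacng1, Cacng6, Scn10a and Scn11a had no kept probe set.

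Cord markers were present, and markers of glia and of other tissues differed between the pools. On A all 7 neuronal, 5 astrocyte and 4 oligodendrocyte markers measured were kept. Of 5 motor neuron markers on A, the peripherin gene Prph and the acetylcholine transporter gene Slc18a3 were kept, and Isl1, Mnx1 and Slc5a7 were not. The astrocyte water channel gene Aqp4 read 451 and 699 against 1774 on A (-1.74, adjusted p = 0.158) and fell on B, with 356 and 434 against 1239 (-1.84, adjusted p = 0.0115). The glutamate transporter gene Slc1a2 fell on B with 3513 and 7489 against 7384 (-1.18, adjusted p = 0.0403) and read 86.2 and 66.7 against 78.7 on A (0.050). In the B reading of Slc1a2 pool 2 was above wild type as deposited, with normalized differences of -1.88 in pool 1 and -0.48 in pool 2. The astrocyte markers Aldh1l1 (0.90) and Gfap (0.28) lay above wild type in both pools on A. Of the 4 kept astrocyte markers on B, 3 were below in both pools and 0 above. Of the oligodendrocyte precursor markers on A, Vcan (-1.21) and Pdgfra (-0.98) lay below wild type and Olig2 (1.17) and Sox10 (0.97) above, and none of these passed. The deposited intensities of the neuronal markers summed to 12966 and 13987 against 16971 on A and to 19420 and 19903 against 16459 on B. The order of these sums turned between the array types, but the median normalized difference did not, at -0.14 on A and -0.22 on B. After normalization 2 of the 4 neuronal markers on B were lower than wild type in each pool, and 1 was higher. Nefl on B exceeded wild type as deposited, at 11605 and 10839 against 10019, with normalized differences of -0.66 in pool 1 and -0.40 in pool 2. The summed intensity of 12 skeletal muscle markers on A was 4518 and 5744 in pools 1 and 2 against 205 in wild type. Liver markers summed to 293, 8165 and 134. The 3' to 5' ratio of the 18S ribosomal RNA control was 2.27 and 1.08 against 0.0493 on A and 1.43 and 0.945 against 0.0605 on B, with wild type the lowest. The ratios of the messenger RNA controls lay closer together. On A they were 1.37 and 1.48 against 1.36 for actin and 0.858 and 0.975 against 0.734 for Gapdh. There transferrin receptor gave 1.55 and 2.29 against 1.56, and pyruvate carboxylase 4.20 and 3.80 against 2.42. On B actin gave 1.40 and 1.47 against 1.52. Here and below, paired readings are pool 1 then pool 2, set against wild type. The targeted gene, Egr3, read 24.9 and 52.7 against 40.6 on A and 210 and 107 against 75.3 on B, so it was below wild type in pool 1 on A and above it in the other readings. Where its probes lie relative to the altered stretch of Egr3 is unstated, and every direction here rests on the labels.

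As a set, the channel genes mostly read below wild type on array type A and had no common direction on B. On A 12 of the 19 kept channel probe sets were below wild type in both pools and 3 above, where 34.8% of all kept probe sets were below and 47.9% above. The median log2 difference was -0.52, with -0.55 in pool 1 and -0.50 in pool 2, beside 0.11 over all kept probe sets. Both pools lay 2-fold or more below wild type for 6 of 19 on A, where 4.35% of all did, and 0 were 2-fold higher in both, where 1.20% were. On B 15 of 30 were below wild type in both pools and 11 above, where 36.6% of all were below and 38.9% above. The median on B was -0.052, with 0.021 under median centring, beside 6.30e-05 over all kept probe sets. On B 1 of 30 was 2-fold or more below in each pool, beside 1.80% of all, and 2 were 2-fold higher, beside 4.27%. Of these, Cacna2d1 1449999_a_at on A and Scn2a 1445259_at on B were below the filter intensity (36.7 on A, 55.9 on B) in both pools and were kept through wild type. Cacnb1 and Cacng8 on B were below it in wild type and were kept through the pools. Such probe sets had to differ to be kept, so their share of the counts supports nothing further. Counted in pool 2 alone 2 were 2-fold lower on B, and in pool 1 alone 5 were.

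**Figure D1:**
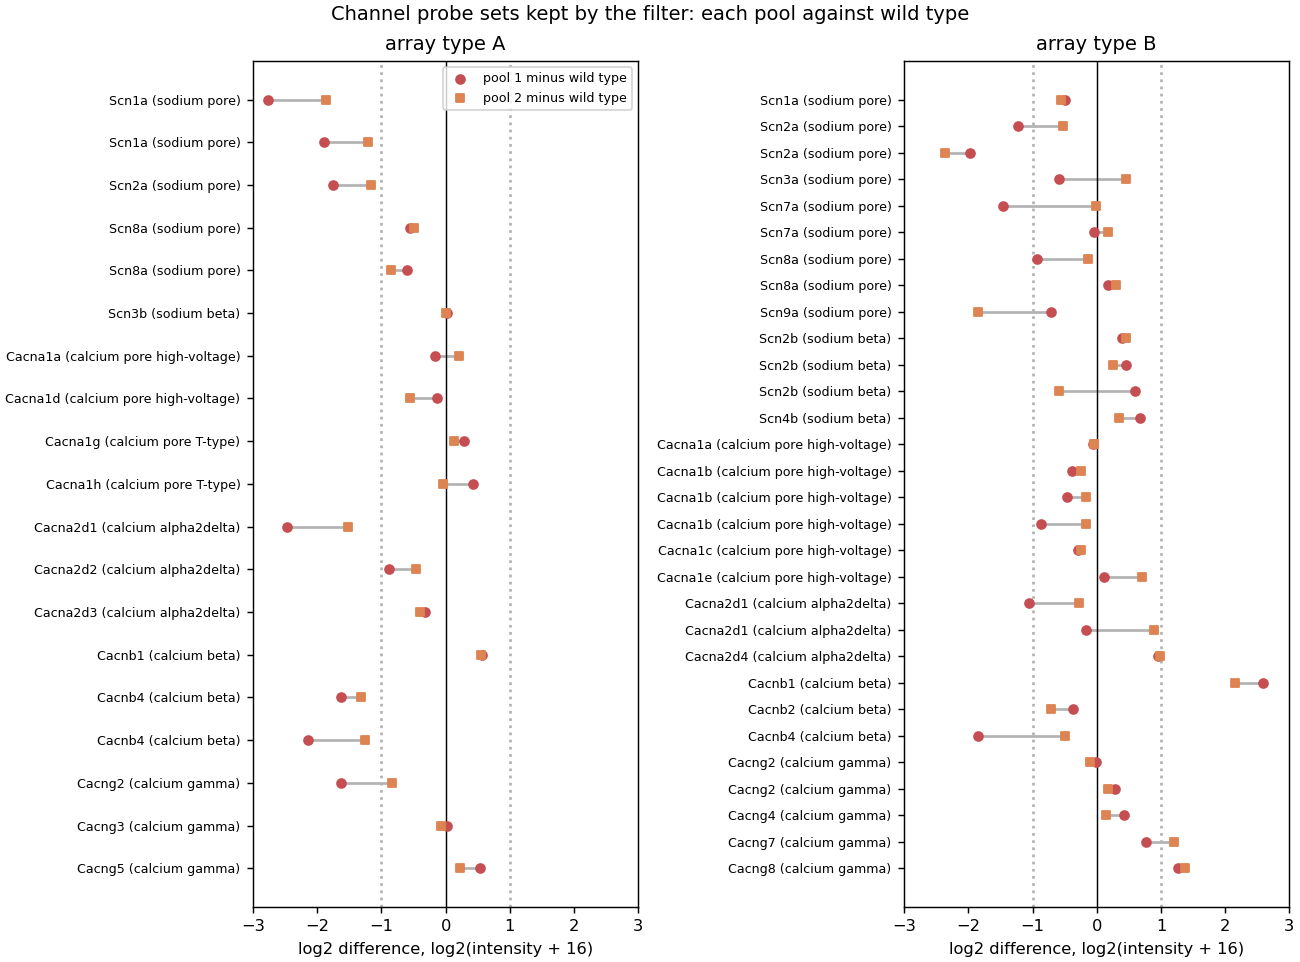
Log2 difference from wild type for each of the 49 kept channel probe sets, in pool 1 (circles) and pool 2 (squares), with array type A on the left and B on the right. Dotted lines mark 2-fold. Sodium pore genes lie left of 0 on A. There 6 channel probe sets pass the lower 2-fold line in both pools, 3 of them of sodium pore genes. Cacnb1 lies farthest right on B.

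The test called 1 channel probe set in all. On A limma called 0 channel probe sets higher, where 0.0663% of all kept probe sets were called higher, and 0 lower, where 0% were. At an unadjusted p under 0.05, 7 of 19 on A were lower and 0 higher. Among all 13576 kept probe sets on A, 1730 were lower and 1077 higher at that p. On B limma called 1 higher, where 1.02% of all were, and 0 lower, where 0.607% were. At an unadjusted p under 0.05, 4 of 30 on B were higher and 3 lower. Among all 13507 kept probe sets on B, 1000 were higher and 923 lower at that p. The calls on A differed in 1 of the scalings tried. With each array centred on its median in place of quantile normalization, 7 of 19 were called lower, where 4.40% of all kept probe sets were. The differences were not larger there, with a median of -0.41 beside -0.52. Without normalization and on scaling by shared probe sets, 0 were called lower.

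**Figure D2:**
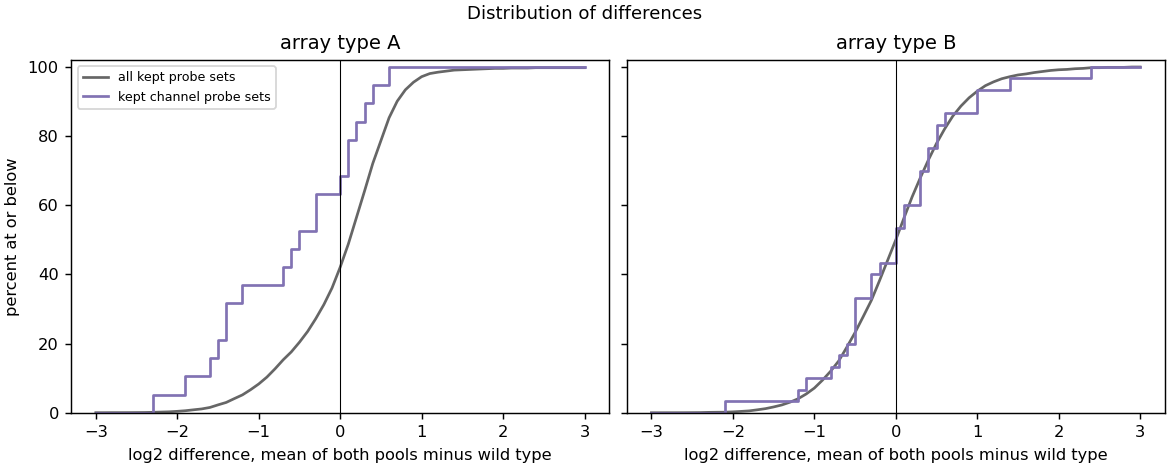
Cumulative percent of probe sets at or below each log2 difference (mean of both pools minus wild type), for all kept probe sets (grey) and the kept channel probe sets (purple). On A the channel curve lies to the left of the curve of all probe sets, with medians of -0.52 and 0.11. On B both curves lie near each other.

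The pore-forming sodium channel genes Scn1a, Scn2a and Scn8a were among those below wild type on A, and none of their probe sets passed the test. Calcium channel genes such as Cacnb4 (-1.48 and -1.70) and Cacna2d1 (-1.99) were also below there. All 5 kept sodium pore probe sets on A were below wild type in both pools, with a median log2 difference of -1.46. On B 6 of 9 were below, 1 above and 2 had the pools on opposite sides of wild type, with a median of -0.53. That median was -0.71 in pool 1 and -0.13 in pool 2. Scn1a encodes a main sodium channel of fast-spiking inhibitory neurons and is also found in motor neurons. Scn2a encodes a channel of the axon initial segment and of unmyelinated axons. Scn8a encodes the main channel of mature nodes of Ranvier.

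Scn1a was below wild type in both pools on all 3 kept probe sets. Probe set 1450120_at on A read 57.8 and 134 against 524. Its log2 difference was -2.32 with an SE of 0.43 (adjusted p = 0.158), and under median centring it was -2.24 and passed (adjusted p = 2.03e-05). Over the 10 other settings tested the adjusted p ran from 2.03e-05 to 0.336. Probe set 1450121_at read 160 and 279 against 659, with pool 1 the lower of the pools again. Its difference was -1.56 (SE 0.37, adjusted p = 0.161), and over the 10 settings the adjusted p ran from 0.0208 to 0.336. On B 1441728_at read 349 and 333 against 472, a smaller difference of -0.52 (SE 0.44, adjusted p = 0.652). The 3 probe sets of Scn1a thus differed from wild type by amounts 1.80 apart on the log2 scale.

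Scn2a was also below wild type in both pools on its 3 kept probe sets. Probe set 1427280_at on A read 36.2 and 70.7 against 181, a log2 difference of -1.46 (SE 0.37, adjusted p = 0.161). On B 1445259_at read 41.9 and 33.6 against 243, and here both pools were similarly low. Its difference was -2.17 (SE 0.65, adjusted p = 0.0689). Since it was kept through the wild-type reading alone, its selection favoured a difference. It passed at a pseudocount of 64 (adjusted p = 0.0242) and with robust eBayes (0.0438), in a range from 0.0242 to 0.474 over the 9 settings that kept it. Probe set 1435933_at read 291 and 484 against 645, a difference of -0.88 (SE 0.44, adjusted p = 0.350). Another probe set, 1427281_at on A, was not kept and read 3.00 and 14.7 against 65.6.

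Scn8a did not have 1 direction. On A 1423515_at read 298 and 309 against 446 (-0.52, SE 0.29, adjusted p = 0.330). The other on A, 1451894_a_at, read 60.1 and 55.1 against 114 (-0.73, SE 0.33, adjusted p = 0.264). Both pools read alike and below wild type on these. On B 1439889_at read 161 and 305 against 331 (-0.53, adjusted p = 0.668), so only pool 1 stood clearly lower. By contrast 1457412_at read 992 and 966 against 714, above wild type in both pools, at 0.24 (SE 0.40, adjusted p = 0.864), with a turn to -0.14 on scaling by shared probe sets.

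Of the other sodium pore genes, Scn3a, Scn7a and Scn9a had kept probe sets on B only. Dim A probe sets of Scn3a (1.65 and 5.50 against 5.97) and Scn7a (2.25 and 14.6 against 21.6) were not kept. The kept readings on B follow. Scn3a, a channel most abundant before birth, read 84.2 and 206 against 153, with the pools on opposite sides of wild type (-0.061, adjusted p = 0.982). Scn7a, an atypical sodium-sensing channel, read 119 and 374 against 368 on 1436043_at and 149 and 181 against 168 on 1436044_at. Only pool 1 was low on the first, and its difference of -1.46 there compared with -0.0053 in pool 2. Scn9a, a channel of sensory and sympathetic neurons, read 66.7 and 24.7 against 139 on 1442810_x_at (-1.28, SE 0.76, adjusted p = 0.467). Its 4 other probe sets on A and B were not kept, and all of them were below wild type in both pools.

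Channels typical of sensory neurons read below wild type, and so did some of the ganglion markers. Scn10a read 6.71 and 9.39 against 29.4 and Scn11a read 25.5 and 11.8 against 37.5 on A, both dim probe sets that were not kept. Of 6 dorsal root ganglion markers 2 were measured on A, and their summed intensity was 13.1 and 7.13 in the pools against 67.4 in wild type. Most of that was Avil, the advillin gene, at 11.2 and 3.07 against 64.5, while P2rx3 there read 1.96 and 4.05 against 2.91. On B 2 were measured, with sums of 111 and 59.7 against 175. There P2rx3, a purine receptor gene, read 21.4 and 5.66 against 93.5, and Trpv1, the capsaicin receptor gene, lay on both sides with 89.4 and 54.0 against 81.5. In bulk RNA fewer cells of a type and less RNA per cell cannot be told apart. The part of ganglion RNA in the Scn9a, Scn10a and Scn11a readings was not tested.

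The kept probe sets of sodium channel beta subunit genes lay near or above wild type. Beta subunits are single-pass membrane proteins that speed channel gating and bind cell adhesion molecules. On B 3 of 4 kept beta probe sets lay above wild type in each pool and none below, with a median of 0.39 that stayed above 0 under each scaling tried, at 0.079 to 0.83. None passed the test. Scn2b read 3067 and 2187 against 1588 on 1436134_at (0.36, SE 0.34, adjusted p = 0.707) and 1143 and 1042 against 702 on 1430648_at (0.42, SE 0.39, adjusted p = 0.697). The remaining Scn2b probe set, 1457144_at, read 160 and 64.5 against 114, so the pools lay on opposite sides. Scn4b, whose product is tied to resurgent sodium current, read 2776 and 1836 against 1266 (0.50, SE 0.35, adjusted p = 0.569). Without quantile normalization the Scn4b difference was 0.83 and those of these Scn2b probe sets 0.70 and 0.63, and on scaling by shared probe sets they were 0.24, 0.12 and 0.042. Scn3b on A read 193 and 197 against 203, a difference of 0.0080 (SE 0.31, adjusted p = 0.990), or -0.054 without quantile normalization and -0.097 on scaling by shared probe sets. Its other probe set on A, 1426328_a_at, was not kept and lay below in each pool, at 18.1 and 9.31 against 41.8. Whether beta and pore genes differ from each other was not tested.

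**Figure D3:**
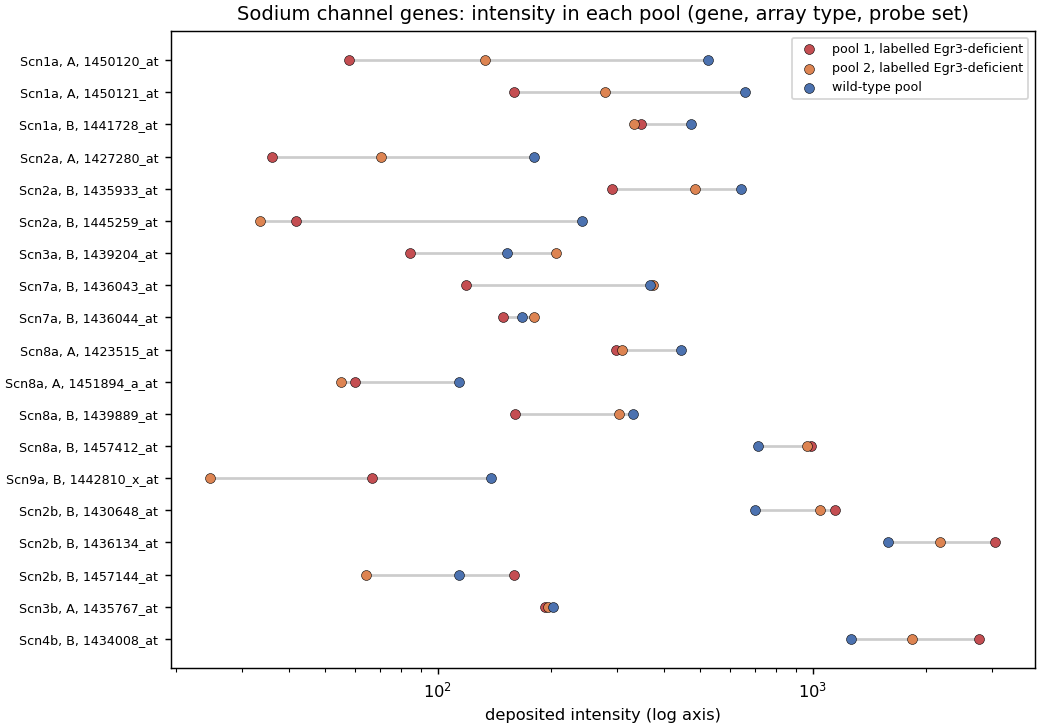
Deposited intensity (log axis) of each kept sodium channel probe set in pool 1 (red), pool 2 (orange) and wild type (blue), 1 row per probe set with its array type. Wild type is the highest point in every row of Scn1a and Scn2a, and the lowest in the row of Scn4b and in 2 of the 3 rows of Scn2b.

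The sodium channel genes also lie together in the genome. In the order of protein-coding genes in RefSeq (GRCm38.p6), Scn3a and Scn2a are next to each other, as are Scn1a, Scn9a and Scn7a, with 3 coding genes between Scn2a and Scn1a. Scn2b and Scn4b, which read above wild type, are direct neighbours, and so are Scn10a and Scn11a. The RefSeq promoter windows of GRCm38.p6, from 250 bases before to 50 after a gene start, were available for 27 of the 35 genes, in 37 windows. EGR proteins bind a GC-rich site, so the letters GCGNGGGCG were searched on both strands, counting overlapping matches. They occurred in 7 of 37 channel windows (18.9%) and in 5.55% of all 32851 windows. The median GC content was 57.3% in the channel windows and 52.7% in all. The genes with a match were Cacna1b, Cacna1c, Cacna1d, Cacna2d1, Cacna2d2, Scn7a and Scn8a. A match is a description of letters, and binding was not measured in this series.

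The windows shown are those of Scn1a, Scn2b and Scn4b, which differed in the directions described and hold no match, and of Scn8a, Cacna1b and Cacna2d1, which hold a match. Capitals mark the matches. They are Scn1a at chr2:66440788-66441087 (minus strand), Scn2b at chr9:45117626-45117925 (plus strand), Scn4b at chr9:45138374-45138673 (plus strand), Scn8a at chr15:100870395-100870694 (plus strand), Cacna1b at chr2:24763103-24763402 (minus strand) and Cacna2d1 at chr5:15934441-15934740 (plus strand), each read 5′ to 3′ along the gene. Cacna1b and Cacna2d1 hold 2 matches each and Scn8a holds 1.
Scn1a: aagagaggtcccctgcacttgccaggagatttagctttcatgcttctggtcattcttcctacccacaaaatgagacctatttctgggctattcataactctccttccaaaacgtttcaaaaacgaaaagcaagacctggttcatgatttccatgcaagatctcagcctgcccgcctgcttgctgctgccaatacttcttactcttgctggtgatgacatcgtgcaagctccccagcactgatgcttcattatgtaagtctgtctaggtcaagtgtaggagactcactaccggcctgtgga
Scn2b: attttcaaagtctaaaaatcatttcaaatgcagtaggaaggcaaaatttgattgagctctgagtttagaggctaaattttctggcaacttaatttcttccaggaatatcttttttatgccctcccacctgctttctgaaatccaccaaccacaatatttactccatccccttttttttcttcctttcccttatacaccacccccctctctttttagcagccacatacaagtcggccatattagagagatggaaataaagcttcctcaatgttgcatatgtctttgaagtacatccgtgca
Scn4b: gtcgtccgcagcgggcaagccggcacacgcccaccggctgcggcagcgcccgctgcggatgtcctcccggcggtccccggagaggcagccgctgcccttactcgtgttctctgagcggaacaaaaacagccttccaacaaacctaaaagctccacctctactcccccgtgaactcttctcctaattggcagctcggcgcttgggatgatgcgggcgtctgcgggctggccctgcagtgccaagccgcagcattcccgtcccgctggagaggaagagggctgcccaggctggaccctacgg
Scn8a: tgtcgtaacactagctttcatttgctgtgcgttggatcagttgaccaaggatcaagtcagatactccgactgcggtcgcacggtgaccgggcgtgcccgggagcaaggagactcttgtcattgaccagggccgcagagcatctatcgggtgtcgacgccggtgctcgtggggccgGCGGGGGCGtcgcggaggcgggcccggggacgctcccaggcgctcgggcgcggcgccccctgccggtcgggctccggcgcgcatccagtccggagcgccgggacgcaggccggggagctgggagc
Cacna1b: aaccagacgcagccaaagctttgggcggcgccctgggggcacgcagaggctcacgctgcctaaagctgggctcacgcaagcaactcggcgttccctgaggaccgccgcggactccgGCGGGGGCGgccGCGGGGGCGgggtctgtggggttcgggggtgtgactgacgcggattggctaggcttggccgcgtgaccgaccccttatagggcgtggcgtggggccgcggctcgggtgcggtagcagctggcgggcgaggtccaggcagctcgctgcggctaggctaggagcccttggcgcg
Cacna2d1: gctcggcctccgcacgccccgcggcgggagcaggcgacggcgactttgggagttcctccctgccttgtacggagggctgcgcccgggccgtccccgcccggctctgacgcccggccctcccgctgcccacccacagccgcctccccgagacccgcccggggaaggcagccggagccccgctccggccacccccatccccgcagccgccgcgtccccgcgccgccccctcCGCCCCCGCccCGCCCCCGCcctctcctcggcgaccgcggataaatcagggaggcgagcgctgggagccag

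Among pore-forming calcium channel genes none passed the test, and every kept one lay within 0.52 of wild type on the log2 scale. For the high-voltage types, 1 of 2 kept probe sets on A was below wild type in both pools and 5 of 6 on B, with medians of -0.16 and -0.29. Cacna1b, the N-type channel of nerve terminals and a target of pain drugs, was below in both pools on all 3 kept probe sets. They read 251 and 429 against 463, 276 and 310 against 362, and 451 and 549 against 566, with log2 differences of -0.52, -0.31 and -0.32 (adjusted p = 0.662, 0.833 and 0.818). Pool 2 lay near wild type on the first and the last of them.

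Cacna1a, the P/Q-type channel that drives release at the neuromuscular junction, had kept probe sets near wild type on both array types. It read 29.8 and 50.1 against 42.3 on A (0.029, SE 0.35, adjusted p = 0.967), and its sign turned to -0.084 without quantile normalization and to -0.13 on scaling by shared probe sets. On B it read 119 and 127 against 141 (-0.050, SE 0.48, adjusted p = 0.985). Another on B, 1444455_at, was not kept and read 27.8 and 23.4 against 59.1, below in each pool. Cacna1c, an L-type channel, read 168 and 180 against 223 on B (-0.27, adjusted p = 0.871), and Cacna1d, another L-type channel found in motor neuron dendrites, 43.0 and 33.3 against 58.1 on A (-0.34, adjusted p = 0.589). Cacna1e, the R-type channel, was the exception on B, at 337 and 519 against 307 (0.41, SE 0.44, adjusted p = 0.748), with -0.16 on scaling by shared probe sets.

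The low-voltage T-type genes, which support rebound firing, were read on A. Cacna1g read 88.0 and 84.2 against 78.8 (0.21, SE 0.33, adjusted p = 0.732). Cacna1h read 59.5 and 44.3 against 47.8 (0.19, SE 0.36, adjusted p = 0.777), so pool 1 was above and pool 2 below wild type.

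The alpha2delta genes, whose products carry the pore to the membrane, were all below wild type on A. There 3 of 3 kept probe sets, 1 for each gene, were below in both pools, with a median of -0.67. Cacna2d1 read 7.27 and 33.0 against 125 on A, with pool 1 far lower than pool 2 (log2 difference -1.99, SE 0.44, adjusted p = 0.161). It was kept through wild type alone and is not among the kept at a pseudocount of 1 or at the 60th percentile. Under median centring it passed (adjusted p = 4.52e-05), in a range from 4.52e-05 to 0.336 over the 8 settings that kept it. On B 1433643_at read 188 and 350 against 409 (-0.66, SE 0.45, adjusted p = 0.559), while 1441608_at read 35.5 and 101 against 54.3, on opposite sides. The differences of the Cacna2d1 probe sets ranged over 2.36 on the log2 scale. Cacna2d2 read 227 and 313 against 438 on A (-0.67, SE 0.32, adjusted p = 0.280), and Cacna2d3 207 and 202 against 274 (-0.37, SE 0.31, adjusted p = 0.507). Cacna2d4, best known from the retina, read 159 and 170 against 86.4 on B, above wild type in both pools (0.97, SE 0.48, adjusted p = 0.348).

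The calcium channel beta genes lay on both sides of wild type. Beta subunits bind the pore from inside the cell and bring it to the membrane. Cacnb1, which includes the beta subunit of the skeletal muscle channel, rose on B, and Cacnb4, the main form in many central neurons, was below wild type on every kept probe set without passing. Cacnb1 read 259 and 192 in pools 1 and 2 against 35.5 in wild type on 1440940_at, with both pools far above. Its log2 difference was 2.37 (SE 0.49, limma adjusted p = 0.00574), and 2.59 and 2.16 in the single pools. Its wild-type reading was under the filter intensity of 55.9, so this call, the only one among the channel genes, rests on a probe set kept through the pools where it was high. The call was kept in 6 of 10 other settings. It was lost without quantile normalization (adjusted p = 0.132), on scaling by shared probe sets (0.327), with no filter (0.455) and without the intensity trend (0.134), in a range from 7.94e-04 to 0.455. On A 1425777_at read 64.9 and 72.3 against 46.2, the same direction at a smaller size (0.55, SE 0.33, adjusted p = 0.351). The 2 other Cacnb1 probe sets on A were not kept and lay above wild type in each pool.

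The pore and gamma genes of the muscle channel were higher where skeletal muscle markers were. Cacna1s, its pore, read 13.3 and 21.9 against 3.52 on A, and Cacng1, its gamma subunit, 21.1 and 19.9 against 3.18, and neither probe set was kept. Its alpha2delta gene, Cacna2d1, was below wild type in both pools on 2 kept probe sets and on opposite sides on 1. All 12 muscle markers on A lay above wild type in each pool, where 47.9% of all kept probe sets did. Of the 12, 7 were called higher, where 0.0663% of all were, and the median was 3.57. In wild type 1 of the 12, Acta1, was at or above the filter intensity of 36.7. The others were kept through the pools where they were high, so the filter favoured these differences. Acta1, skeletal muscle actin, read 1096 and 1205 against 39.7 on A. On B the 2 muscle markers measured summed to 222 and 340 against 197. The part of muscle RNA in the Cacnb1 readings was not tested.

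**Figure D4:**
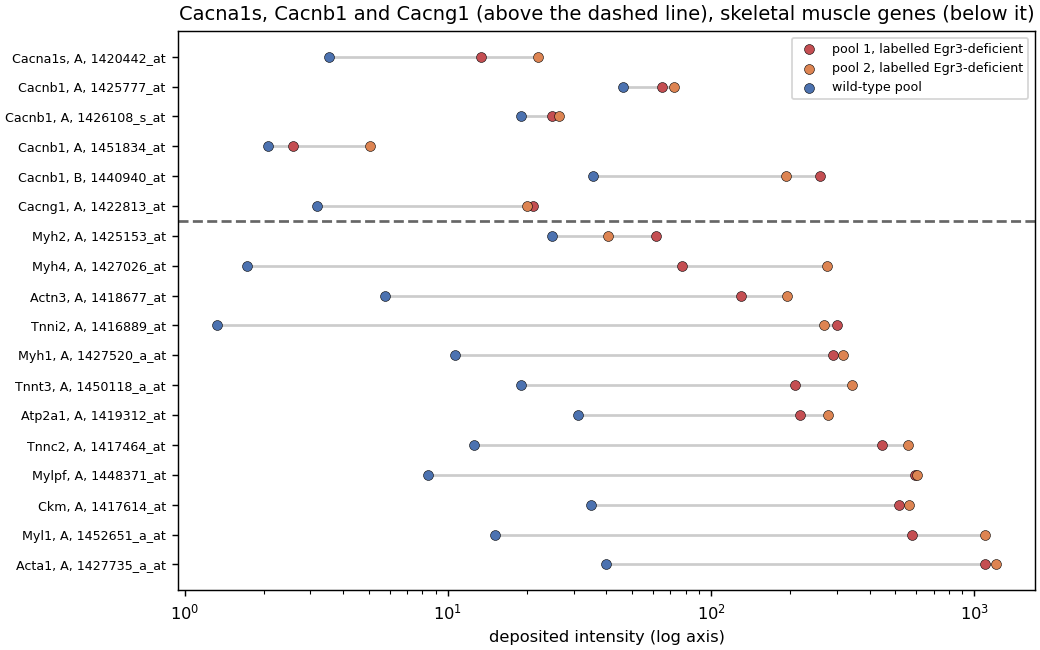
Deposited intensity (log axis) of the Cacna1s, Cacnb1 and Cacng1 probe sets (above the dashed line) and of 12 skeletal muscle markers on A (below it), in pool 1 (red), pool 2 (orange) and wild type (blue). Wild type is the lowest point in every row.

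Cacnb4 was below wild type on its 3 kept probe sets. On A 1436912_at read 56.1 and 81.1 against 230 (-1.48, SE 0.34) and 1452089_at read 33.2 and 83.9 against 225 (-1.70, SE 0.43), each with an adjusted p of 0.161. Both passed under median centring, with adjusted p of 0.0112 and 0.00183, in ranges from 0.0112 and 0.00183 to 0.336 over 10 settings. On B 1428928_at read 224 and 623 against 790, and there pool 1 stood apart with -1.85 against -0.50 in pool 2 (-1.18, SE 0.45, adjusted p = 0.186). Cacnb2, a beta subunit of heart and brain, read 315 and 246 against 399 on B (-0.54, SE 0.44, adjusted p = 0.647).

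The gamma genes were split between the array types. Cacng2, the stargazin gene, whose product brings AMPA receptors to synapses, read 30.1 and 73.1 against 146 on A (-1.23, SE 0.41, adjusted p = 0.185). On B it read 616 and 550 against 549 on 1440210_at, above wild type as deposited, and 58.7 and 60.4 against 58.2 on 1453363_at, with normalized differences of -0.053 and 0.23. The sign of the first turned to 0.084 without quantile normalization and 0.25 under median centring, and that of the second to -0.56 on scaling by shared probe sets. Cacng8 and Cacng7, which encode other AMPA receptor regulators and are direct neighbours in the genome, were above wild type in both pools on B. Cacng8, kept through the pools, read 119 and 139 against 49.8 (1.32, SE 0.56, adjusted p = 0.252) and Cacng7 read 378 and 506 against 218 (0.98, SE 0.44, adjusted p = 0.289). Cacng4 read 372 and 298 against 270 on B (0.29, adjusted p = 0.852), with -0.30 on scaling by shared probe sets, and Cacng5 read 130 and 109 against 94.8 on A (0.38, adjusted p = 0.531). Cacng3 read 62.4 and 65.2 against 71.0 on A (-0.022, adjusted p = 0.973).

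**Figure D5:**
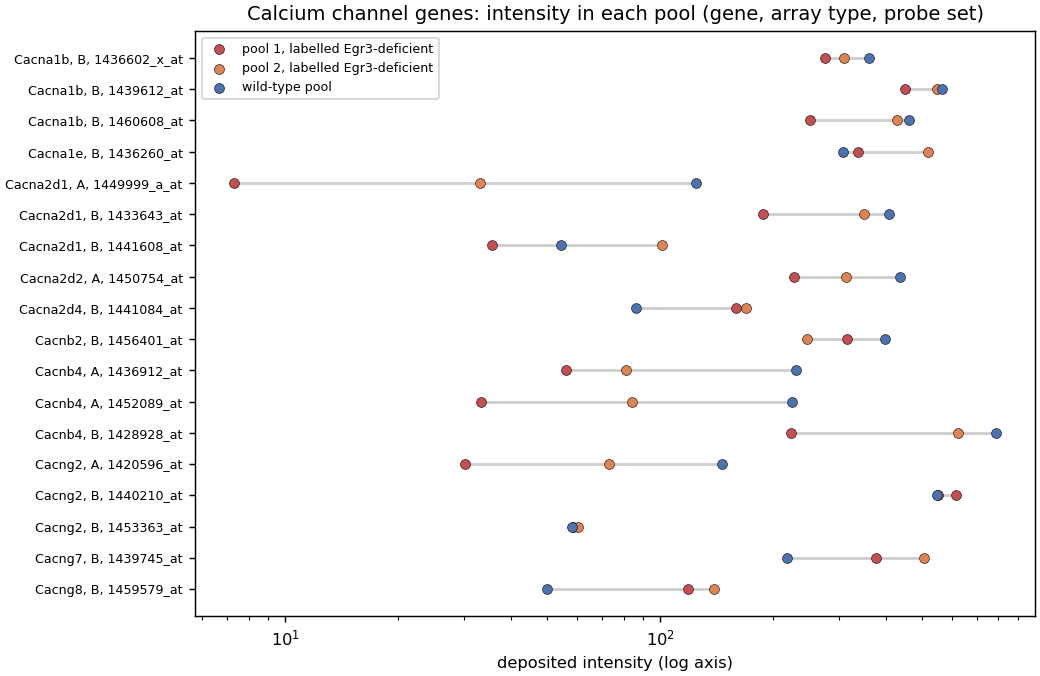
Deposited intensity (log axis) of kept probe sets of 10 calcium channel genes in pool 1 (red), pool 2 (orange) and wild type (blue), 1 row per probe set with its array type. Wild type is the highest point in each row of Cacnb4 and Cacna1b, and the lowest in those of Cacng7, Cacng8 and Cacna2d4.

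Probe sets of 1 gene did not always move together. Of the 29 genes with a kept probe set, 11 had more than 1. In 4 of these, Scn1a, Scn2a, Cacna1b and Cacnb4, every kept probe set was below wild type in both pools, and in 1, Cacnb1, every one was above. In Scn8a and Cacng2 some were below and others above in both pools. In the other 4 at least 1 probe set had the pools on opposite sides of wild type. Of the 36 probe sets that were not kept, 5 lay above wild type in both pools, 20 below and 11 on both sides. Among them, named after their values were seen, are some that went against a kept probe set of the gene. Cacna1e on A read 9.10 and 3.46 against 13.7, Cacng8 on A read 1.63 and 4.39 against 5.80, and Cacna2d4 1457703_at on B read 85.8 and 17.5 against 70.7. The isoforms and transcript ends that these probe sets read were not analysed here, nor was whether their probes match other genes.

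Genes whose products anchor, modulate or act beside these channels were read from a list of 50. On A 34 were measured and 23 kept, with 9 above and 13 below wild type in both pools, a median of -0.17 and 0 calls by limma in either direction, with 6 lower and 0 higher at an unadjusted p under 0.05. Over all kept probe sets on A 47.9% were above and 34.8% below. Of these 13576 probe sets, 1730 were lower and 1077 higher at that unadjusted p. On B 27 were measured and 24 kept, with 8 above and 13 below, a median of -0.38, 1 called higher and 2 called lower. Over all kept on B, 38.9% were above, 36.6% below, 1.02% called higher and 0.607% called lower. Unc80, a subunit of the sodium leak channel complex, fell on B from 1836 in wild type to 365 and 914 in the pools (-1.88, adjusted p = 0.0113). Its pore partner Nalcn read 526 and 711 against 885 (-0.72, adjusted p = 0.445). Fgf12, which encodes a cytosolic factor that binds sodium channels and modulates their inactivation, fell on B with 266 and 764 against 1298 (-1.70, adjusted p = 0.0323), but on A it read 157 and 190 against 254 (-0.47, adjusted p = 0.408). Camk2a, a calcium-calmodulin kinase that phosphorylates these channels, rose on B with 1600 and 1296 against 432 (1.55, adjusted p = 0.0268).

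On A Camk2a was not kept and read 1.08 and 5.55 against 2.00. Among the other partners, none passed. Slc8a1, a sodium-calcium exchanger gene, read 58.1 and 109 against 450 on A (-2.22, adjusted p = 0.141) and 305 and 709 against 1166 on B (-1.50, adjusted p = 0.0566). Ank3, the ankyrin that gathers sodium channels at the axon initial segment and nodes, read 487 and 787 against 1333 on A (-1.20, adjusted p = 0.162) and 791 and 887 against 924 on B (-0.34, adjusted p = 0.777). Cntn1, an adhesion molecule that binds sodium channel beta subunits, read 770 and 1273 against 2516 on A (-1.45, adjusted p = 0.161) and 1450 and 988 against 1296 on B (-0.41, adjusted p = 0.690), where pool 1 was above wild type as deposited. Sptbn4, the spectrin of the axon initial segment, read 297 and 219 against 169 on A (0.60, adjusted p = 0.326). Nefm, a neurofilament gene among the neuronal markers, read 2037 and 2200 against 3669 on A (-0.94, adjusted p = 0.161). Of the 7 neuronal markers on A, 4 lay below wild type in both pools and 2 above, with a median of -0.14. Snap25 (-0.96) was also below, while Eno2 (0.34) and Rbfox3 (0.31) lay above in both pools. The part of neuronal RNA in the sodium channel readings was not tested. Pool 1 was the lower of the pools for Scn1a on A, for Cacnb4 and for Unc80, Fgf12 and Slc8a1.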

How the data were processed

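The authors deposited a linear intensity for each probe set on each array; the sources used here name no summarising program. In the deposited intensity values the mean left after trimming 2% per tail lay between 150.019 and 150.063 on every array. Of the 22690 probe sets on array type A and 22575 on B, 64 each were controls and were left out. Gene symbols came from the platform annotation, and RefSeq (GRCm38.p6) changed 0 of the 85 channel symbols.

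The array types were analysed separately, on log2(intensity + 16), quantile normalized across the 3 arrays without controls, and probe sets were kept at the 40th percentile of the mean (13576 and 13507 probe sets; intensity 36.7 and 55.9). The fit was limma 3.58.1 in R 4.3.3 (lmFit, eBayes with an intensity trend), adjusted by Benjamini-Hochberg within the array type. A check on simulated data gave every probe set and pool of an array type the same spread. It could not test the spread of wild type or a spread that changes with intensity. The fit had 1 residual degree of freedom, from the 2 pools, beside a prior of 6.54 on A and 52.3 on B, and assumed that wild type varies alike. Nothing says that the 2 pools were more than separate RNA pools. The p-values rest on their spread and, through the prior, more on that of all kept probe sets. On B Cacna1a 1430408_at and Scn7a 1436043_at both had an SE of 0.48. The standard deviation of the 2 pools was 0.0052 for the first and 1.03 for the second. No p-value here measures the spread of wild type. Genes named were every kept pore gene, every called or 2-fold member, genes read on both array types and the auxiliary genes with the largest difference shared by both pools. Members and lists were chosen with earlier results of these data known. For each gene of a list, the probe set with the highest mean on the array type was read. Alternatives were no normalization, median centring, scaling on the 100 shared non-control probe sets, pseudocounts of 1 and 64, no filter or the 60th percentile, no trend, robust eBayes, joint adjustment of A with B and each pool left out.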

Additional observations from a re-analysis of the deposited data

How the results depend on the processing

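Of the 49 kept channel probe sets, 39 kept the sign of their difference wherever they were kept among the 10 settings other than leaving out a pool; some dropped out at a stricter filter or another pseudocount. No paired analysis was possible because the labels pair no pools and wild type has 1. On A, median centring gave 7 called lower and a median of -0.41; the median was -0.57 on shared scaling, -0.46 and -0.47 at pseudocounts of 1 and 64 (with 3 instead of 6 2-fold lower at 64), -0.17 with no filter and -0.67 at the 60th percentile. On B the 1 higher call became 0 without normalization, on shared scaling, with no filter and without trend, and 1 was called lower at a pseudocount of 64 and with robust eBayes. The median on B was -0.15 without normalization, 0.021 under median centring, -0.73 on shared scaling, where the median of all kept probe sets was -0.67, and -0.18 with no filter. The 2 that were 2-fold higher on B became 1 on shared scaling, at the 60th percentile and with 64 as pseudocount; the 1 that was 2-fold lower became 3 on shared scaling, 2 with no filter, 0 at the 60th percentile, and 2 and 5 in the single pools.

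Signs turned without normalization for Scn3b (-0.054), Cacna1a on A (-0.084), Scn7a 1436044_at (-0.033), Cacng2 1440210_at (0.084) and Scn2b 1457144_at (-0.12; -0.012 at a pseudocount of 1). They turned under median centring for Cacng2 1440210_at (0.25). On shared scaling they turned for Scn3b (-0.097), Cacna1a on A (-0.13), Scn7a 1436044_at (-0.62), Cacna1e (-0.16), Cacna2d1 1441608_at (-0.44), Cacng2 1453363_at (-0.56), Cacng4 (-0.30), Scn2b 1457144_at (-0.71) and Scn8a 1457412_at (-0.14). The cause of these changes was not tested. The 1 array per pool and array type limits precision, and members near the filter intensity were measured least well.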
